A study of Mus musculus with 4 samples.

Results

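The immediate early genes described here were Fos, Fosb, Jun, Junb, Egr1, Egr3, Nr4a1, Nr4a2, Npas4 and Arc. Their CpG methylation was examined in the hippocampus and the frontal cortex. The 10 genes were taken by name, out of 25755 mouse genes with a curated RefSeq transcription start. In the hippocampus, a CpG site belonged to a gene when it lay between 1 kb before the start and the gene end on mm10 and had at least 5 reads in both libraries. This gave 1140 of 2226271 CpG sites, each site being 1 cytosine on 1 strand. In the frontal cortex, the deposited list held 8 sites annotated to a promoter, exon or intron of these genes, of 9731 listed CpG sites.

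E3 offspring came from pregnant CD-1 mice, an outbred stock, that received estriol (E3, 50 µl of a 0.46 mg/ml solution in DMSO) from a mini-osmotic pump for 7 days starting on gestation day 9. CT offspring came from mothers given DMSO from the same kind of pump. All samples were from wild type female offspring, labelled as 8 weeks old, and the exposure took place before birth. Genomic DNA was profiled by Methyl-MiniSeq, in which bisulfite sequencing is limited to fragments cut by TaqαI and MspI, so cytosines away from their cutting sites are not read. Each tissue had 1 E3 library and 1 CT library, 4 libraries in all, and the sources do not say whether a library held 1 mouse or several. No value therefore has a replicate check, and each test compares 2 libraries and not the exposures. The labelled tissues could not be checked against expression markers, since only DNA was read. In bulk tissue, a different mix of cell types and a different level within a cell type cannot be told apart.

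Immediate early genes are switched on within minutes of neuronal firing, without new protein synthesis, through transcription factors such as CREB and SRF that are already present on the promoters. Their CpG-rich promoters are usually unmethylated. Most encode transcription factors that go on to activate later genes, and Arc encodes a protein that acts at synapses. In the hippocampus and cortex they are widely used to mark neurons that were recently active.

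RefSeq promoter windows of GRCm38.p6 (mm10), 250 bases before to 50 bases after the start, were at hand for 7 of the 10 genes, and Arc, Egr1 and Egr3 had none in the table. CREB binds the sequence TGACGTCA (CRE) and its half-site TGACG, whose CpG can be methylated. No window held a full CRE, and 6 of the 7 windows, all but that of Jun, held a half-site on either strand, against 20.8% of 32851 mouse promoter windows. No window held an AP-1 site (TGANTCA) or a CArG box, the SRF element, which were found in 7.81% and 1.63% of all windows. An EGR site (GCGNGGGCG) was in the windows of Fosb, Nr4a1 and Nr4a2, against 5.55% of all windows. The half-site and the EGR site both contain a CpG, and the member windows held from 15 CpGs (Jun) to 52 (Nr4a2), against a median of 7 over all windows. A comparison with equally CpG-rich windows was not made. A match to these letters is a description and not a binding site. Of 14 half-site matches, only 4 held a CpG cytosine that was read in both libraries, 2 in Npas4 and 2 in Nr4a1. Those windows are shown for that reason, with half-sites in capitals.
Npas4, chr19:4989922-4990221, minus strand: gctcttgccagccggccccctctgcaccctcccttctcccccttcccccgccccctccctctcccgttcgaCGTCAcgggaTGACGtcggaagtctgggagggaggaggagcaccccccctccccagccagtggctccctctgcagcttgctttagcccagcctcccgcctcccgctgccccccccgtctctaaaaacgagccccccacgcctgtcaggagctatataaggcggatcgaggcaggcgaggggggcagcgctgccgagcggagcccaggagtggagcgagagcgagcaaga
Nr4a1, chr15:101266596-101266895, plus strand: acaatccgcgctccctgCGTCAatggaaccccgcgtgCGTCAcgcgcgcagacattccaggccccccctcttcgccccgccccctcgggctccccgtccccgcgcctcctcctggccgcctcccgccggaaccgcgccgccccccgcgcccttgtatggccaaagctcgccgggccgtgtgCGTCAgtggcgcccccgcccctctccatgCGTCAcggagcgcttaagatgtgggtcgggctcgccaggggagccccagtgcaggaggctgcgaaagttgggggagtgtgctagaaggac

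The CpG cytosines inside these half-sites were unmethylated in every read. Both Npas4 half-sites, at positions -179 to -165 from the start, had 0 of 38 methylated reads each in E3 and 0 of 13 each in CT. In Nr4a1, the half-sites at positions -69 and -40 had 0 of 8 reads each in E3 and 0 of 5 each in CT. Over the 4 sites this was 0 of 92 reads in E3, which allows a level of up to 4.01%, and 0 of 36 reads in CT, which allows up to 9.64%. All intervals are 95% Wilson intervals. They cover counting error only, and reads summed over sites are linked because 1 read can cover several sites.

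A hippocampus CpG site was called when the libraries differed by at least 10 points with an unadjusted p under 0.05 in a 2-sided Fisher's exact test. Of the 1140 sites of the immediate early genes, 77 (6.75%) were called, 26 higher and 51 lower in E3. Over all CpG sites 11.0% were called, 6.18% higher and 4.83% lower in E3. Egr3 and Nr4a2 held 43 of the 77 calls, with 9.36% and 10.2% of their sites called. Without these genes, left out after their values had been seen, 703 sites had 34 calls (4.84%), 16 higher and 18 lower in E3.

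**Figure D1:**
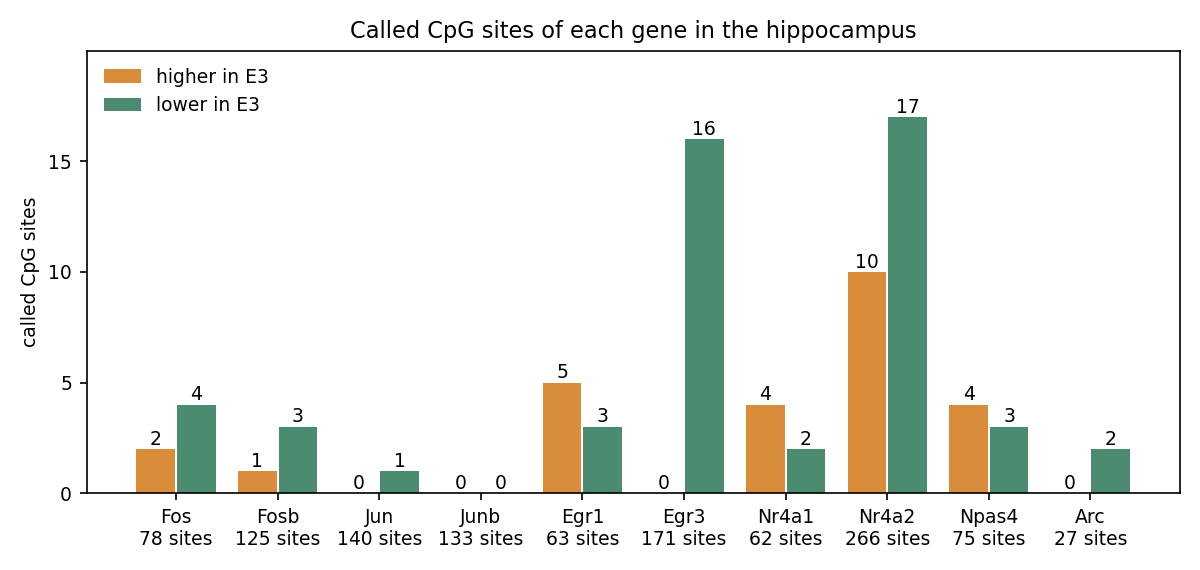
Number of CpG sites called higher (left bar) or lower (right bar) in E3 than in CT for each gene in the hippocampus, with the number of measured sites under its name. All 16 calls of Egr3 were lower in E3, Nr4a2 had 10 higher and 17 lower, and Junb had none. Called sites made up 9.36% of the Egr3 sites and 10.2% of the Nr4a2 sites, against 11.0% of all CpG sites.

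Sites were also grouped by their mean level over both libraries. That mean includes the difference itself, so the bands partly fix which sites can be called. Of 877 member sites with a mean level under 10%, 0.570% were called, 2 higher and 3 lower in E3, against 0.480% of all such sites (0.156% higher and 0.325% lower). Of 244 sites between 10 and 90%, 29.1% were called, 24 higher and 47 lower in E3, against 29.7% of all such sites (16.9% higher and 12.9% lower). The remaining 19 sites were above 90% and had 1 call, lower in E3, against 0.634% of all such sites (0.270% higher and 0.365% lower). Most member sites were thus in the band under 10%, where large differences cannot occur and few sites are called anywhere. Whether level sets the share of calls was not tested.

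In the promoters, which reached 1000 bases either way from the start, 18 of 605 sites (2.98%) were called, 2 higher and 16 lower in E3. Among all sites near a curated start 4.67% were called, 1.19% higher and 3.48% lower in E3. Beyond the promoters, 59 of 535 member sites (11.0%) were called, 24 higher and 35 lower in E3. Over all CpG sites 11.0% were called, but that share includes the sites near a curated start, called at 4.67%. It is therefore not a like background, and the share for sites away from a start alone was not worked out. Reads were then summed over all sites of each promoter, compared by Fisher's exact test and adjusted by the Benjamini-Hochberg method over 15821 promoters with at least 5 CpG sites. No promoter of the 10 genes passed an adjusted p under 0.05 together with a difference of 10 points, against 7.00% of all promoters (3.12% higher and 3.88% lower in E3). An adjusted p under 0.05 alone was reached by 6 of the 10, against 30.8% of all promoters. Fosb, Junb, Egr1 and Npas4 were higher and Egr3 and Arc lower in E3. The members had a median of 68 sites per promoter, against 40 over all promoters, and more sites bring more reads to the test. Of the 6 promoters, only Arc stayed under 0.05 both within 500 bases of the start and with a minimum of 10 reads. The promoter levels had a median of 2.33% in E3 and 1.26% in CT, against 2.72% in E3 and 2.62% in CT over all promoters. The median difference was 1.18 points for the members and 0.286 points for all promoters.

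**Figure D2:**
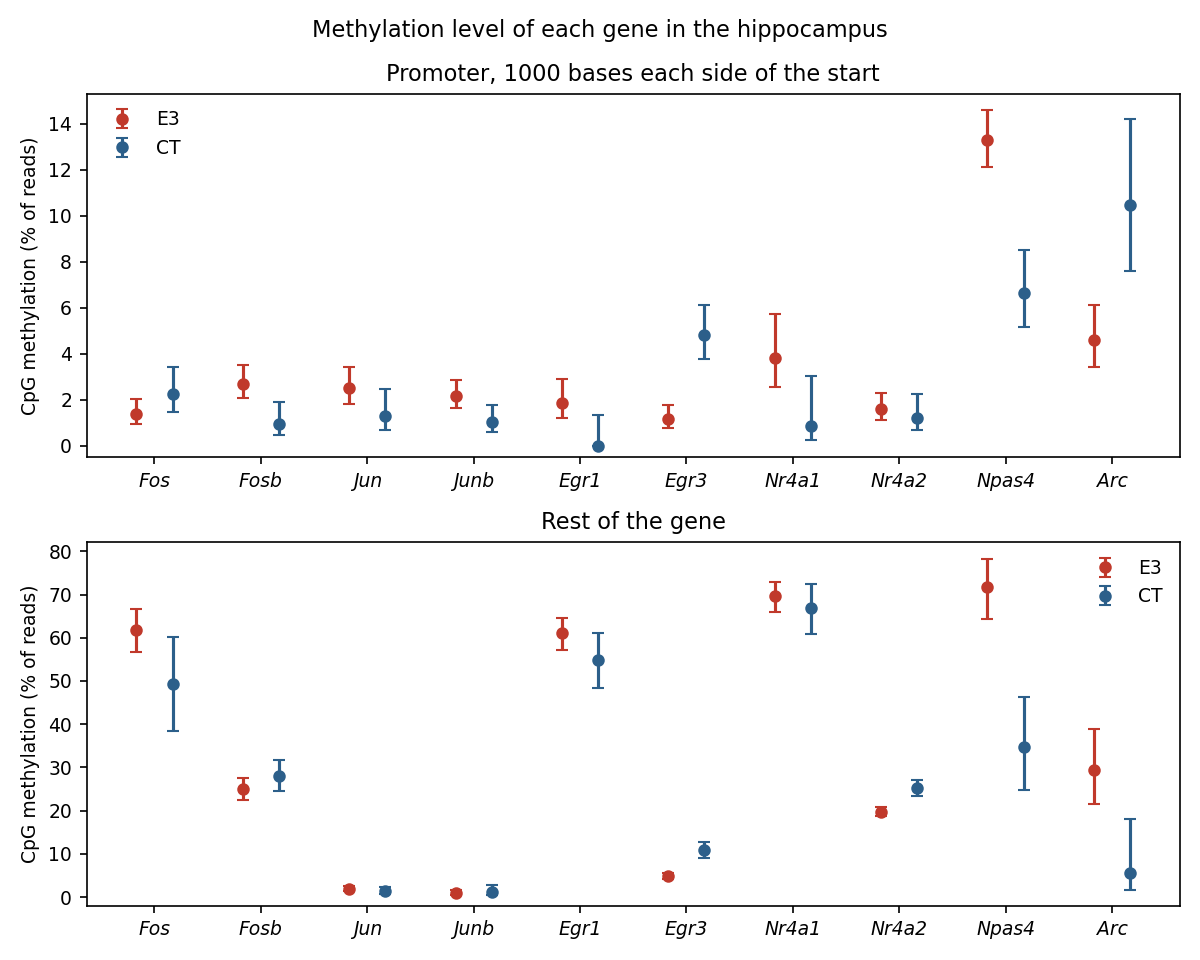
Percentage of methylated reads over the CpG sites of each gene in the hippocampus, E3 (red) left of CT (blue), with 95% Wilson intervals that cover counting error only; the upper panel shows promoters and the lower panel the rest of each gene. Promoters were at most 13.3% in E3 and 10.4% in CT, and the rest of the gene ranged up to 71.8% in E3 and 66.9% in CT.

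Fos and Fosb encode partners that pair with Jun proteins to form the AP-1 transcription factor. Fos lay at chr12:85472890-85477274, plus strand, with the kilobase before its start included here and in the regions of the other genes. The Fos promoter was methylated at 1.38% (0.942 to 2.01%) of 1888 reads in E3 and 2.26% (1.48 to 3.43%) of 929 reads in CT, adjusted exact p = 0.188. Of its promoter sites, a pair in the intron shared the most reads over both libraries. The site 856 bases after the start had 0% of 106 reads in E3 and 0% of 32 reads in CT, and the site at 861 bases had 1.89% of 106 reads in E3 and 3.13% of 32 reads in CT. Both were near 0 in both libraries. The 3 called promoter sites of Fos were all lower in E3.

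Further into Fos, beyond 1000 bases from the start, 11 sites had 61.8% (56.6 to 66.7%) of 353 reads in E3 and 49.4% (38.5 to 60.3%) of 77 reads in CT, adjusted exact p = 0.121. The called sites with the smallest p lay here. In a coding exon, chr12:85476443 on the minus strand had 69.2% (50.0 to 83.5%) of 26 reads in E3 and 0% (up to 39.0%) of 6 reads in CT, p = 0.00331 by Fisher's exact test. Its neighbour 32 bases away, chr12:85476411, had 65.4% of 26 reads in E3 and 0% of 6 reads in CT. In the 3' UTR, chr12:85477092 had 53.2% of 47 reads in E3 and 100% of 8 reads in CT. The sign thus differed between the coding exon and the 3' UTR, and the CT values rested on at most 8 reads.

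The Fosb promoter (gene region chr7:19302696-19311045, minus strand) had 2.70% (2.06 to 3.52%) of 1928 reads in E3 and 0.923% (0.448 to 1.89%) of 758 reads in CT, adjusted exact p = 0.0143. No single site in it was called, and 48 of its 71 sites were unmethylated in both libraries. The promoter sites with the most reads, in the 5' UTR at 240 and 242 bases after the start, each had 5.88% of 68 reads in E3 and 0% of 34 reads in CT. Beyond the promoter, Fosb had 24.9% of 1108 reads in E3 and 28.0% of 585 reads in CT, adjusted exact p = 0.306. A pair of linked 3' UTR sites was lower in E3. At chr7:19303684 the level was 38.5% of 39 reads in E3 and 100% of 10 reads in CT, p = 0.000636 by Fisher's exact test, and at chr7:19303731 it was 40% of 40 reads in E3 and 100% of 10 reads in CT. In a coding exon, chr7:19306560 had 20.8% of 24 reads in E3 and 61.1% of 18 reads in CT, while a site 10 bases away had 50% in E3 and 16.7% in CT.

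Jun and Junb, the AP-1 partners of the Fos proteins, had low levels both in the promoter and beyond it. The Jun promoter (gene region chr4:95049036-95053222, minus strand) had 2.49% (1.81 to 3.42%) of 1485 reads in E3 and 1.30% (0.687 to 2.46%) of 691 reads in CT, adjusted exact p = 0.174. The rest of Jun had 1.81% of 1932 reads in E3 and 1.33% of 830 reads in CT. A pair of promoter sites 9 bases apart shared the most reads, of which chr4:95051980 had 7.41% of 54 reads in E3 and 0% of 10 reads in CT, and chr4:95051989 had 0% of 54 reads in E3 and 0% of 10 reads in CT. Jun had 1 called site among 140, in the 5' UTR at chr4:95051847, with 0% of 11 reads in E3 and 66.7% of 9 reads in CT, p = 0.00217 by Fisher's exact test. Jun overlaps the antisense gene Junos.

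The Junb promoter (gene region chr8:84976909-84979748, minus strand) had 2.17% (1.64 to 2.88%) of 2164 reads in E3 and 1.01% (0.579 to 1.76%) of 1188 reads in CT, adjusted exact p = 0.0448, a difference of 1.16 points. The rest of Junb had 0.918% of 1089 reads in E3 and 1.24% of 483 reads in CT. None of its 133 sites was called, and at the promoter site with the most reads 0 of 50 reads in E3 and 0 of 44 reads in CT were methylated.

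Egr1 and Egr3 encode zinc finger transcription factors that bind GC-rich sequences. The Egr1 promoter (gene region chr18:34860207-34864956, plus strand) had 1.88% (1.22 to 2.88%) of 1066 reads in E3 and 0% (up to 1.32%) of 288 reads in CT, adjusted exact p = 0.0410. All 41 Egr1 promoter sites were unmethylated in CT and 34 of them in E3. The pair of sites with the most reads over both libraries lay on the plus strand. These sites had 0% of 78 reads each in E3 and 0% of 14 reads each in CT. On the minus strand the same CpGs had 7.5% of 80 reads each in E3 and 0% of 8 reads each in CT. None of the 41 sites was called.

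All 8 called sites of Egr1 lay in a coding exon within 193 bases, chr18:34863199-34863391, a stretch chosen after its values were seen. Over its 19 measured sites the level was 62.1% (58.1 to 65.9%) of 588 reads in E3 and 53.3% (46.3 to 60.1%) of 199 reads in CT. The calls split by position, with 3 lower in E3 at one end and 5 higher in E3 at the other. The smallest p was at chr18:34863283, with 75% of 20 reads in E3 and 0% of 10 reads in CT, p = 0.0002 by Fisher's exact test. The nearby sites chr18:34863295 and chr18:34863391 had 70% and 80% of 20 reads in E3, against 0% of 10 and 11.1% of 9 reads in CT. The 5 higher calls lay on 1 strand within 150 bases and had nearly equal read totals, so they are not separate observations.

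Egr3 was the only one of the 10 genes with more than 2 calls that all went one way: 16 of its 171 sites (9.36%) were called, all lower in E3, against 11.0% of all CpG sites called and 4.83% called lower. Its region was chr14:70076317-70082613, plus strand, and its measured sites lay from 156 to 2732 bases after the start, so nothing upstream was read. The promoter part had 1.17% (0.776 to 1.77%) of 1875 reads in E3 and 4.82% (3.79 to 6.12%) of 1307 reads in CT, adjusted exact p = 1.4e-08. The rest of the gene had 4.78% (4.09 to 5.58%) of 3161 reads in E3 and 10.8% (9.13 to 12.8%) of 1089 reads in CT, adjusted exact p = 8.5e-10. Both differences were below 10 points, and within 500 bases of the start the promoter difference of -3.65 points was -1.75 points, adjusted exact p = 0.103. Outside the 16 called sites the level was 3.34% in E3 and 3.76% in CT. Taking out the called sites, all lower in E3, draws these levels together by itself.

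The calls of Egr3 clustered in 3 stretches, found after the values were seen as runs of at least 3 called sites no more than 200 bases apart. The first pair is shown with 10 flanking bases, plus strand, and the CpGs with a called site are in capitals.
Egr3 intron, chr14:70078043-70078094: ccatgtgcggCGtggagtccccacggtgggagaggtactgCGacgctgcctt
Egr3 coding exon, chr14:70079075-70079116: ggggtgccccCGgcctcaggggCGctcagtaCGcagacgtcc

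The intron stretch had 0% (up to 1.68%) of 225 reads in E3 and 13.2% (9.30 to 18.4%) of 212 reads in CT. The first coding stretch had 5.67% (2.90 to 10.8%) of 141 reads in E3 and 27.7% (18.3 to 39.6%) of 65 reads in CT. The second coding stretch, 26 measured sites long, had 6.90% (5.48 to 8.65%) of 986 reads in E3 and 28.0% (22.8 to 33.8%) of 254 reads in CT. In each stretch the E3 level was below the CT interval, though the stretches were picked by their calls and get no test.

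The Egr3 sites with the smallest p were chr14:70079719, 70079675 and 70078589. At chr14:70079719, 0% (up to 6.64%) of 54 reads in E3 and 66.7% (30.0 to 90.3%) of 6 reads in CT were methylated, p = 3.1e-05 by Fisher's exact test. At chr14:70079675 the level was 5.26% of 38 reads in E3 and 55.6% of 18 reads in CT, p = 5.7e-05 by Fisher's exact test. At chr14:70078589 it was 0% of 43 reads in E3 and 40% of 15 reads in CT, p = 0.000124 by Fisher's exact test. The promoter site with the most reads, chr14:70078053 in the intron, had 0% of 58 reads in E3 and 14.3% of 56 reads in CT, and was also called.

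Egr3 sites read on both strands allow a look at the same CpG in other reads. At the CpG of chr14:70078053 the plus strand had 0% in E3 and 14.3% in CT, and the minus strand had 0% of 32 reads in E3 and 20% of 30 reads in CT. At the CpG of chr14:70079718 the plus strand had 10.5% of 38 reads in E3 and 52.9% of 17 reads in CT, and the minus strand had 0% in E3 and 66.7% in CT. Both CpGs were called lower in E3 on both strands. Of 11 Egr3 CpGs read on both strands with a call on at least 1 strand, 6 differed in the same direction on both strands, 3 in opposite directions, and 2 were equal on 1 strand. Over all such CpGs in the data 41.0% had the same direction and 43.1% opposite directions, and over the 10 genes 42.5% each. With 11 CpGs, whether Egr3 departs from these shares was not tested.

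**Figure D3:**
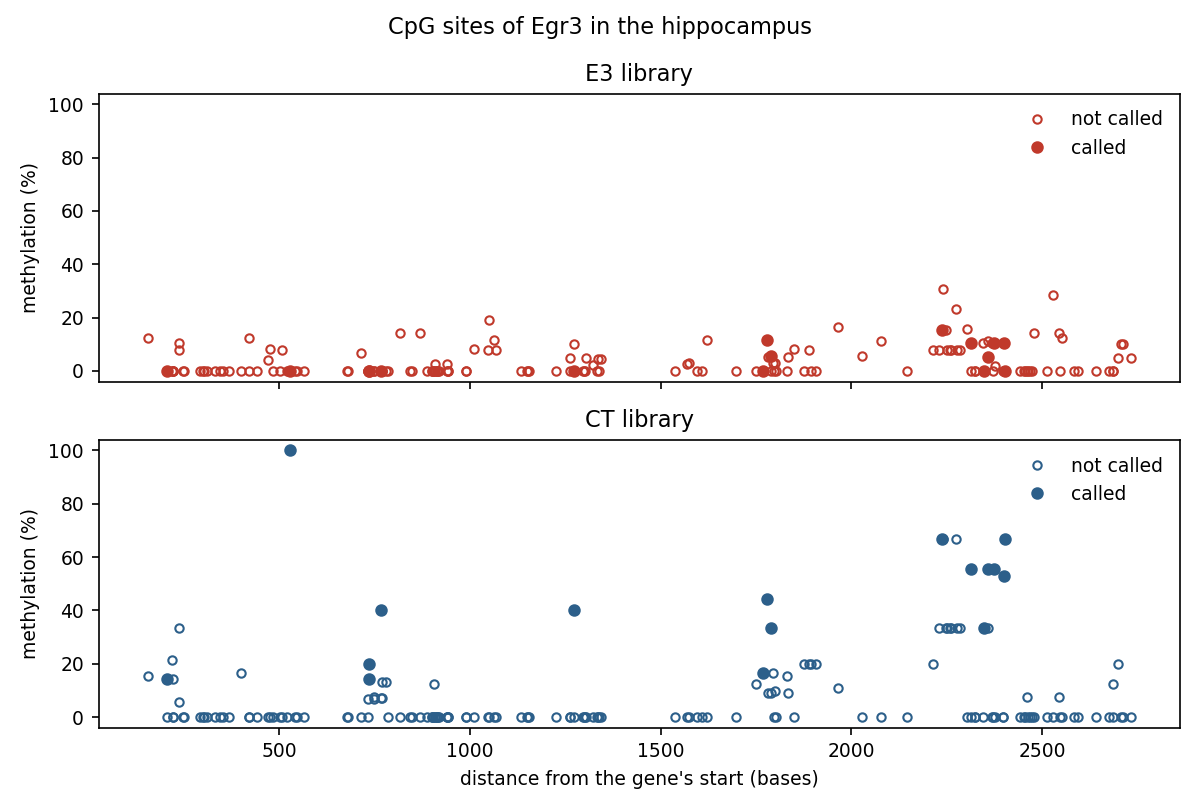
Methylation of each CpG site of Egr3 in the hippocampus against its distance from the start, E3 in the upper and CT in the lower panel, with called sites filled. The 16 called sites ran from 0 to 15.4% in E3 and from 14.3 to 100% in CT, and were picked by that difference. The other 155 sites ran from 0 to 30.8% in E3 and from 0 to 66.7% in CT, with 3.34% of reads methylated in E3 and 3.76% in CT.

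Nr4a1 and Nr4a2 encode orphan nuclear receptors that act without a known hormone ligand, and Nr4a2 is also required for midbrain dopamine neurons. The Nr4a1 promoter (gene region chr15:101265846-101274795, plus strand) had 3.83% (2.54 to 5.72%) of 575 reads in E3 and 0.851% (0.234 to 3.05%) of 235 reads in CT, adjusted exact p = 0.0659. The promoter site with the most reads, chr15:101267743 in an intron, had 16.9% (10.3 to 26.3%) of 83 reads in E3 and 0% (up to 19.4%) of 16 reads in CT and was not called. The 7 upstream sites had no methylated read in either library. Beyond the promoter Nr4a1 had 69.6% (66.0 to 73.0%) of 671 reads in E3 and 66.9% (60.9 to 72.5%) of 248 reads in CT, adjusted exact p = 0.619.

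The 6 called sites of Nr4a1 were all in coding exons, 4 higher and 2 lower in E3. The smallest p was at chr15:101274023, with 73.3% of 30 reads in E3 and 20% of 10 reads in CT, p = 0.00684 by Fisher's exact test. A site 55 bases away on the other strand, chr15:101274078, went the opposite way, with 38.9% of 36 reads in E3 and 100% of 6 reads in CT. At chr15:101272255 the level was 71.4% of 14 reads in E3 and 16.7% of 12 reads in CT.

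Nr4a2 (chr2:57106830-57125003, minus strand) had the most measured sites of the 10 genes, 266, and the most calls, 27 (10.2% of its sites, against 11.0% of all CpG sites). Its promoter, at the start of the 5'-most curated transcript, had 1.59% (1.11 to 2.27%) of 1827 reads in E3 and 1.22% (0.664 to 2.23%) of 820 reads in CT, adjusted exact p = 0.749. The promoter site with the most reads had 5.41% of 74 reads in E3 and 0% of 28 reads in CT. A second curated start of Nr4a2, looked at after the values were seen, had 2.87% (2.36 to 3.49%) of 3379 reads in E3 and 1.93% (1.26 to 2.97%) of 1034 reads in CT over 98 sites. The rest of the gene, which contains that start, had 19.8% (18.8 to 20.8%) of 5826 reads in E3 and 25.2% (23.5 to 27.1%) of 2231 reads in CT, adjusted exact p = 2.1e-06, a difference of -5.44 points. Nr4a2 overlaps the annotated gene LOC105244150.

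In Nr4a2, 18 of the 27 calls fell in 1 stretch of 608 bases, chr2:57111502-57112109. Its 51 sites had 45.7% (42.9 to 48.4%) of 1277 reads in E3 and 45.3% (41.7 to 48.9%) of 740 reads in CT, a difference of 0.384 points, while 8 sites were called higher and 10 lower in E3. The 8 higher sites had 52.3% of reads in E3 and 8.04% in CT. The 10 lower sites had 49.6% of reads in E3 and 96.3% in CT. Both groups were picked by these differences, so the gaps and the extreme CT levels come partly with the choice. Single E3 levels ran from 38.1 to 66.7% at the higher sites and from 11.1 to 85.2% at the lower ones, while CT was at 25% or less and at 83.3% or more. A stretch of 156 bases with 9 of these calls is shown, minus strand, with the CpGs of called sites in capitals, because sites a few bases apart went in opposite directions.
Nr4a2 coding exon, chr2:57111640-57111795: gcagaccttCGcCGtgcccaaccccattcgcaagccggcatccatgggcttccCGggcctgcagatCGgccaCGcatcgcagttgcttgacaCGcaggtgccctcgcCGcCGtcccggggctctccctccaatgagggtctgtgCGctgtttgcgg

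In that sequence, chr2:57111685 had 66.7% of 27 reads in E3 and 7.69% of 13 reads in CT, and chr2:57111688 on the same strand had 33.3% of 27 reads in E3 and 92.3% of 13 reads in CT. The Nr4a2 sites with the smallest p were all lower in E3. They were chr2:57109408 in an intron, with 56.3% (42.3 to 69.3%) of 48 reads in E3 and 100% (from 90.8%) of 38 reads in CT, p = 4.2e-07 by Fisher's exact test, chr2:57111961 with 40% of 30 reads in E3 and 100% of 20 reads in CT, and chr2:57111785 with 23.5% of 34 reads in E3 and 83.3% of 24 reads in CT. At 2 CpGs of Nr4a2 both strands were called and in opposite directions. One was chr2:57112041, where the plus strand had 57.1% of 21 reads in E3 and 0% of 10 reads in CT, and the minus strand had 22.2% of 9 reads in E3 and 100% of 10 reads in CT.

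**Figure D4:**
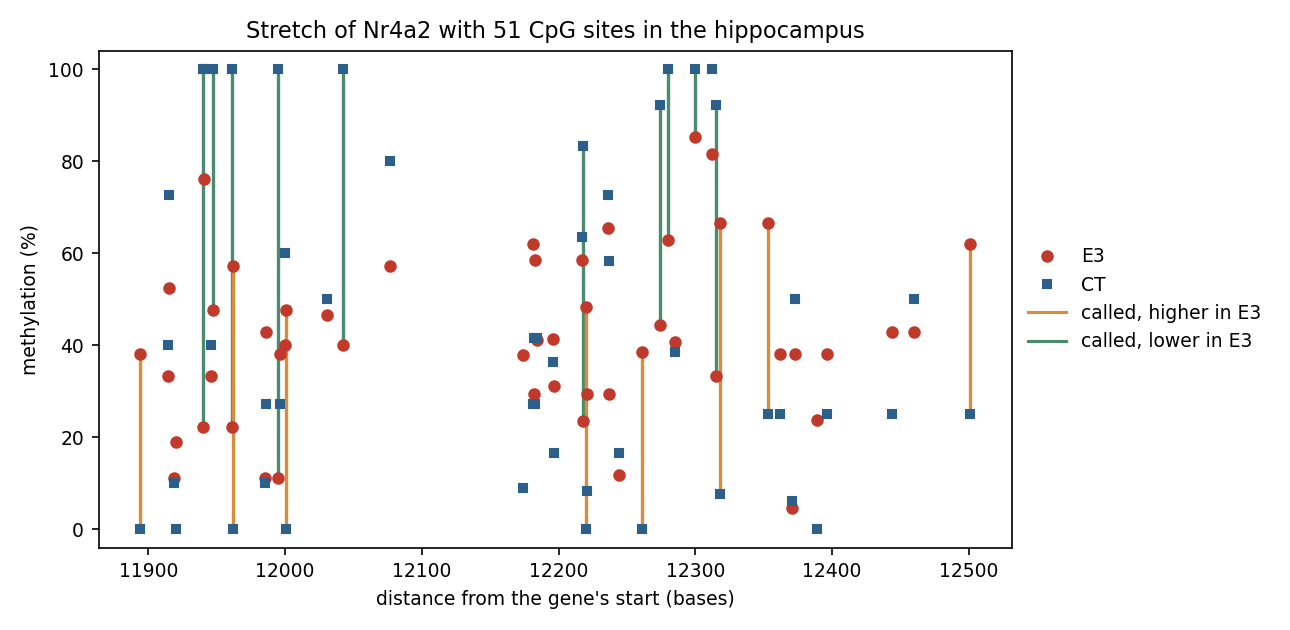
Methylation of the 51 CpG sites in the 608-base stretch of Nr4a2 in the hippocampus, E3 as circles and CT as squares, against the distance from the start; lines join the libraries at called sites. The 8 sites called higher in E3 had CT levels from 0 to 25%, and the 10 called lower had CT levels from 83.3 to 100%. Both groups were picked by their difference between the libraries.

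Npas4 encodes a neuron-specific transcription factor of the bHLH-PAS family that responds to calcium entry and shapes inhibitory synapses. Npas4 lay at chr19:4984353-4990971, minus strand. Its promoter had the highest E3 level of the 10 promoters, 13.3% (12.1 to 14.6%) of 2938 reads in E3 and 6.64% (5.14 to 8.52%) of 844 reads in CT, adjusted exact p = 6.3e-07. The mean over the 65 sites was nearly the same in both libraries, 9.71% in E3 and 9.26% in CT. The pooled gap arose at 18 coding sites 175 to 238 bases after the start, picked after the values were seen, which carried 44.7% of the promoter reads of E3 and 12.8% of those of CT. These 18 sites had 24.2% (22.0 to 26.6%) of 1314 reads in E3 and 18.5% (12.3 to 26.9%) of 108 reads in CT, with 66 to 80 reads per site in E3 and 6 in CT. The other 47 sites had 4.50% (3.59 to 5.61%) in E3 and 4.89% (3.55 to 6.70%) in CT. With at least 10 reads required in both libraries, the promoter difference of 6.67 points became -0.48 points.

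Around the Npas4 start the calls went both ways. The promoter site with the most reads, chr19:4989936 in the 5' UTR, had 19.2% (11.8 to 29.7%) of 73 reads in E3 and 0% (up to 6.31%) of 57 reads in CT, p = 0.000254 by Fisher's exact test. At chr19:4989953, 17 bases away on the other strand, 3.03% of 66 reads in E3 and 33.3% of 12 reads in CT were methylated, p = 0.00434 by Fisher's exact test. Over the 10 sites of this run the level was 6.32% of 427 reads in E3 and 5.60% of 232 reads in CT.

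Beyond its promoter, Npas4 was the only one of the 9 genes tested that passed both thresholds, against 14.8% of 16373 genes (8.10% higher and 6.72% lower in E3). Its 10 sites had 71.8% (64.3 to 78.3%) of 156 reads in E3 and 34.7% (24.8 to 46.2%) of 72 reads in CT, a difference of 37.1 points, adjusted exact p = 3e-06. Of these sites 9 were higher in E3 and 1 was lower. The largest gap was at chr19:4988169 in a coding exon, with 90.5% (71.1 to 97.3%) of 21 reads in E3 and 0% (up to 39.0%) of 6 reads in CT, p = 9.5e-05 by Fisher's exact test. CT had 6 to 13 reads per site here. An adjusted p under 0.05 alone was reached by 3 of the 9 genes, Npas4, Egr3 and Nr4a2, against 35.5% of all genes. With at least 10 reads required in both libraries, the difference of Nr4a2 was -2.11 points, adjusted exact p = 0.218, and its mean over sites was -1.63 points, against the -5.44 points above.

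Arc encodes the activity-regulated cytoskeletal protein, which moves to active synapses and promotes the removal of AMPA receptors. Arc lay at chr15:74669081-74673570, minus strand, and its measured promoter sites lay only after the start, from 175 to 529 bases. They had 4.59% (3.43 to 6.13%) of 936 reads in E3 and 10.4% (7.61 to 14.2%) of 335 reads in CT, adjusted exact p = 0.00188. Most of the difference lay at 1 CpG in the coding exon. It is shown in capitals with 10 bases on each side, on the minus strand, which is the coding strand of Arc.
Arc coding exon, chr15:74672209-74672230: atctgttgacCGaagtgtccaa

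The plus strand of this CpG, chr15:74672219, had 0% (up to 12.5%) of 27 reads in E3 and 66.7% (39.1 to 86.2%) of 12 reads in CT, p = 8e-06 by Fisher's exact test. The minus strand, chr15:74672220, had 9.09% (4.68 to 16.9%) of 88 reads in E3 and 35.5% (21.1 to 53.1%) of 31 reads in CT, p = 0.00132 by Fisher's exact test. It was the only CpG of Arc with a call and was lower in E3 on both strands. Over the other 21 promoter sites the level was 4.26% in E3 and 5.48% in CT, and taking out the called CpG draws these levels together by itself. Among these sites the most reads were at chr15:74672145, with 6.82% of 88 reads in E3 and 6.25% of 32 reads in CT, and chr15:74672173, with 9.09% of 88 reads in E3 and 6.25% of 32 reads in CT. At 4 sites in the 3' UTR, too few for the test, Arc had 29.4% (21.4 to 38.9%) of 102 reads in E3 and 5.56% (1.54 to 18.1%) of 36 reads in CT. Arc overlaps the annotated gene Gm32994.

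The depth behind these values was unequal. At the member sites the median was 25 reads in E3 and 9.5 in CT, and over all CpG sites it was 27 in E3 and 9 in CT. The 77 calls fell into 48 groups of sites on the same strand, each at most 150 bases from the next and with read totals in both libraries within 1 read of it, so many calls may rest on the same reads. Of the called sites, 15 (19.5%) were at exactly 0 or 100% in E3 and 35 (45.5%) in CT, against 20.3% in E3 and 37.9% in CT of all called sites. At 131 of the 1140 sites, 20 of them called, the read totals of both libraries were exactly 2 times those of a neighbour within 150 bases on the same strand. At all 18 Npas4 coding sites named above, reads and methylated reads were even numbers in both libraries. The same held at 9 of the 16 called Egr3 sites (56.3%) and 8 of the 27 called Nr4a2 sites (29.6%). It held at 29 of the 77 called member sites (37.7%), against 24.4% of all called sites. Called or not, it held at 31.2% of the member sites and 26.0% of all CpG sites. Whether single fragments were counted more than once was not tested, and p-values would then be too small. Of 275 member CpGs read on both strands, 40 had a call. In 3 of the 40 (7.50%) both strands were called in the same direction, against 8.81% of such CpGs in the whole data, and in 2 (5%) in opposite directions, against 4.58%.

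Methylation outside CpG was low. Over the 10 genes, CHG sites (H being A, C or T) had 1.66% of reads in E3 and 1.15% in CT, against 2.22% in E3 and 2.29% in CT over all CHG sites. CHH sites had 1.58% in E3 and 1.20% in CT, against 2.44% in E3 and 2.67% in CT over all CHH sites. Egr3 had 1.12% (0.936 to 1.33%) in E3 and 3.04% (2.65 to 3.49%) in CT at CHH sites and 1.73% in E3 and 2.69% in CT at CHG sites. Egr1, in contrast, had 1.69% (1.40 to 2.05%) in E3 and 0.0556% (0.00981 to 0.314%) in CT at CHH sites, and Jun 2.18% in E3 and 0.396% in CT. CHG and CHH levels in DNA of this kind include unconverted cytosines, whose share was not tested. Of the 10 genes, Egr3 and Arc had a lower CHH level in E3 than in CT, and the other genes a higher one.

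Genes related to the 10 were compared in the hippocampus by their promoters. Of 41 other rapid response genes, among them Egr2, Nr4a3, Fosl2 and Homer1, 1 promoter was called, that of Zfp36, which encodes an RNA-binding protein that destabilises cytokine mRNAs. It had 12.0% (10.4 to 13.7%) of 1480 reads in E3 and 25.6% (22.2 to 29.4%) of 562 reads in CT, adjusted exact p = 2.2e-11. The other promoters differed by less than 10 points, with a median difference of 0.183 points over the 41. Of 29 upstream regulators, such as the CREB, SRF and MEF2 factors and their kinases, 26 promoters could be tested and 0 were called, with a median difference of 0.293 points. The background was the 7.00% of all promoters given above. An adjusted p under 0.05 alone was reached by 10 of the 41 and 11 of the 26, against 30.8% of all promoters.

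In the frontal cortex, only sites that had passed the authors' own test (10 points, unadjusted p of 0.05) were listed, without read numbers, so the depth is unknown. All 8 sites of the immediate early genes were lower in E3, in 4 of the 10 genes, and 6 lay in CpG islands. Of all 9731 listed sites 63.7% were lower in E3, and of 2434 listed sites in CpG islands 80.7%. Levels of the 8 sites ran from 0 to 18.2% in E3 and from 18.5 to 53.3% in CT, with a median difference of -20.7 points. Fos, Fosb, Junb, Egr1, Npas4 and Arc had no listed CpG.

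Jun had 0% in E3 and 18.5% in CT in the 3' UTR at chr4:95049949, and 2.67% in E3 and 20.5% in CT upstream, at position -798 from the start (chr4:95053020). Egr3 had 18.2% in E3 and 53.3% in CT in the 3' UTR at chr14:70079911. Nr4a1 had 3.48% in E3 and 23.2% in CT at chr15:101266766, position -80 from the start and 11 bases from one of the half-sites printed above. Nr4a2 had 4 listed sites. The level at chr2:57123669, in the intron 334 bases after the start, was 3.85% in E3 and 37.7% in CT, and at chr2:57116383, in another intron, it was 4.95% in E3 and 26.7% in CT. In the coding exon, chr2:57111684 had 15% in E3 and 38.7% in CT, and chr2:57112109 had 11.7% in E3 and 29.0% in CT.

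At the same CpGs the hippocampus gave no common direction. At 4 of the 8 no difference was called, with 3.70% of 27 reads in E3 and 0% of 11 reads in CT at the Jun 3' UTR site and no methylated read in either library at the Egr3 site and the intronic Nr4a2 sites. The upstream sites of Jun and Nr4a1 were not measured. The remaining CpGs lie in the coding exon of Nr4a2. At chr2:57111684 the hippocampus differed in the other direction, with 66.7% (47.8 to 81.4%) of 27 reads in E3 and 7.69% (1.37 to 33.3%) of 13 reads in CT. It was a called site, measured on the minus strand alone. At chr2:57112109 the plus strand was called higher in E3, with 38.1% of 21 reads in E3 and 0% of 11 reads in CT, the minus strand had 0% of 9 reads in E3 and 40% of 10 reads in CT and was not called, and both strands summed gave 26.7% of 30 reads in E3 and 19.0% of 21 reads in CT and no call. Whether the tissues differ was not tested. Outside CpG, the frontal cortex lists held 1 CHG site in Npas4 and 1 CHH site each in Fos and Egr1, with 0% in E3 and 25%, 26.1% and 20.8% in CT.

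**Figure D5:**
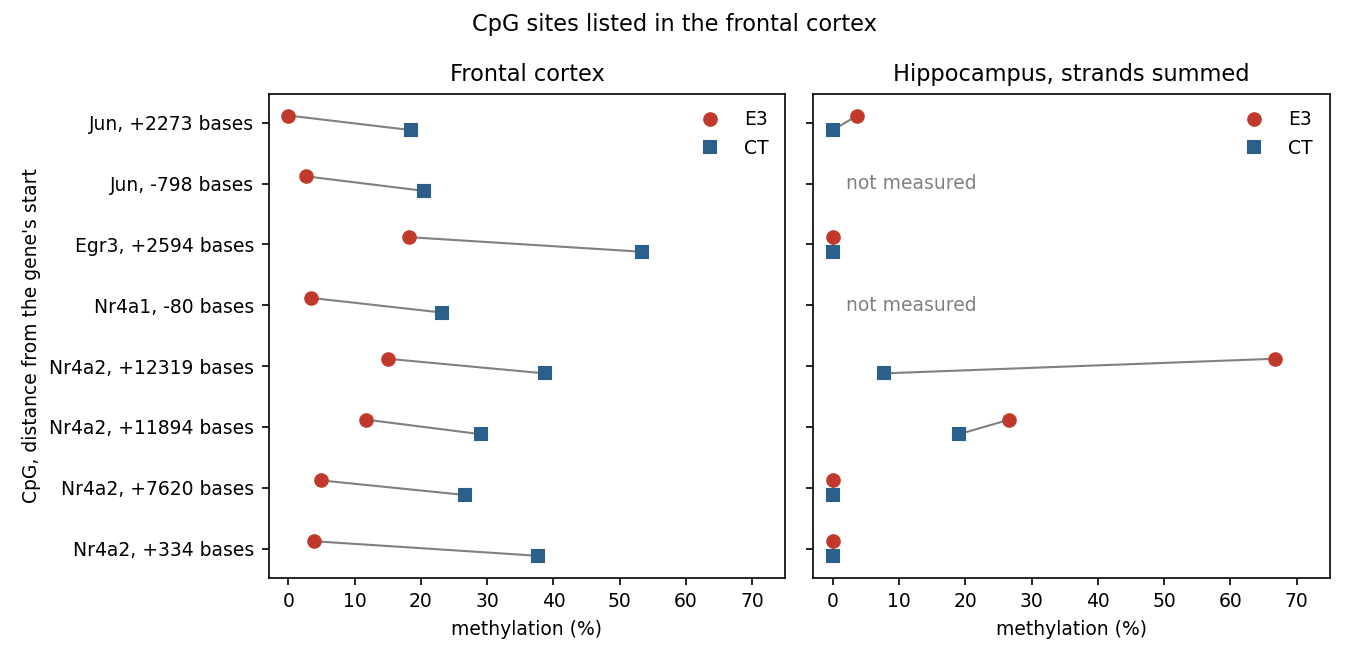
Methylation of the 8 CpGs listed in the frontal cortex (left) and of the same CpGs in the hippocampus, summed over the measured strands (right), E3 as circles and CT as squares, labelled by gene and distance from its start. In the hippocampus only the CpG of Nr4a2 at 11894 bases was measured on both strands. All 8 were lower in E3 in the frontal cortex, and in the hippocampus the CpG of Nr4a2 at 12319 bases was higher in E3.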

How the data were processed

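Genomic DNA of 4 libraries, 1 per tissue and condition, was analysed. Per the study's methods, the authors' sequencing service trimmed Methyl-MiniSeq reads with TrimGalore 0.6.4, aligned them to mm10 with Bismark 0.19.0 and called cytosines with MethylDackel 0.4.0. The hippocampus tables deposited by the authors held a methylated fraction (2 decimals) and a total read count for each cytosine. Methylated reads were rebuilt as fraction times count, rounded. For the frontal cortex, the authors deposited the methylated fraction of called sites only. Columns with the authors' own p-values and differences were not used, except that the frontal cortex lists had been filtered on them.

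Gene starts were those of the 5'-most curated RefSeq transcript of GRCm38.p6, and all 1140 member sites fell on a CpG of that build. Reads per CpG site averaged 33.5 in E3 and 12.3 in CT in the hippocampus. Sites and summed windows were compared with 2-sided Fisher's exact tests over the whole table (SciPy 1.17.1, statsmodels 0.14.6, Python 3.11.15), and the scripts were tested on simulated data. With 1 library per group, tests compare libraries.

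The text names all 10 members, their listed frontal cortex sites, up to 3 called hippocampus sites with the smallest p per member, the promoter site with the most reads, and the called promoters of both further lists. Other named sites and stretches were chosen after their values were seen. Members and lists were chosen with earlier results of these data known. Alternatives changed the read minimum, the difference, the adjustment, the strands and the promoter definition. The sequence of 1 stretch of Egr3 is not reported here.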

Additional observations from a re-analysis of the deposited data

Results flagged for a closer look

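At 2 CpGs in the coding exon of Nr4a2 the tissues gave differences of opposite sign, and the difference between the tissues was not tested. At chr2:57111684, E3 minus CT was 59.0 points in the hippocampus, where only the minus strand was measured, and -23.7 points in the frontal cortex. At chr2:57112109 it was 7.62 points in the hippocampus with both strands summed, which was not called (p = 0.739 by Fisher's exact test), and -17.4 points in the frontal cortex. There the plus strand was called higher in E3, while the minus strand, with 0% of 9 reads in E3 and 40% of 10 reads in CT, had the same sign as the frontal cortex. Both lie in the stretch where neighbouring hippocampus sites were called in both directions, and the tissues were deposited as separate tables, with no read numbers for the frontal cortex.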

How the results depend on the processing

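No paired analysis was possible because each tissue and condition had 1 library, and for the same reason no library could be left out. The alternative that used the authors' adjusted p-values in the frontal cortex was not run, since those columns were not used. The 77 called hippocampus sites (26 higher, 51 lower in E3) became 17 of 122 (3 higher, 14 lower) with at least 20 reads in both libraries, where 18.4% of all sites were called, and 29 (8 higher, 21 lower) with adjusted p-values, where 3.35% were. Without Egr3 and Nr4a2, an alternative added after seeing the data, 34 of 703 (4.84%) were called (16 higher, 18 lower). At a difference of 5 points instead of 10, 2 promoters of the 10 genes passed (13.1% of all promoters), 3 of the other rapid response genes and 1 of the upstream regulators. At 25 points the frontal cortex list held 2 of its 8 sites. With 10 reads, 25 points, summed strands or without sites over 200 reads, the counts over all 10 genes stayed within 1.5 times, but at 10 reads 1 call of 6 was left in Fos, 0 of 1 in Jun and 5 of 8 in Egr1, at 25 points 4 of 7 in Npas4, and with summed strands 5 of 8 in Egr1.

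No promoter was called within 500 bases of the start (10 tested), in the 1000 bases before it (8 tested), with 10 reads (8 tested) or with the start of the RefSeq gene record (9 tested), added after seeing the data. The adjusted p alone moved past 0.05 within 500 bases for Fosb (0.0612), Junb (0.870), Egr1 (0.537) and Egr3 (0.103), and with 10 reads for Junb (0.327) and Npas4 (0.792), while Fos within 500 bases (0.0437) and Jun with 10 reads (0.0397) came under it. In the 1000 bases before the start only Nr4a2 (0.00939) of the 8 tested was under it, all by Fisher's exact test. The sign of some small differences turned. With 1000 bases before the start only, Fosb was at -0.0235 points, Npas4 at -2.33 and Nr4a2 at -2.21. Npas4 was at -0.48 with 10 reads. Nr4a2 was at -1.06 with 500 bases on each side and at -0.41 as a mean over sites. In the rest of the gene, Jun was at -0.33 and Egr1 at -2.85 with 10 reads, Nr4a1 at -0.45 and Junb at 0.0445 as means over sites. With 10 reads, the rest of Fosb (-10.1 points), Egr3 (-10.1) and Nr4a1 (16.4) passed both thresholds. The rest of Npas4 had too few sites at 10 reads for a value, and its sites had 6 to 13 reads in CT.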
